A study of Homo sapiens with 4 samples.

Results

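The genes described here are 10 that mark the epithelial state of a cell or its transition to a mesenchymal one. They were taken as a named list and found by Ensembl identifier among the 58522 genes of the table, and all 10 were found. They comprised 4 keratins (*KRT7*, *KRT8*, *KRT18* and *KRT19*), the adhesion molecule *EPCAM*, the splicing regulators *ESRP1* and *ESRP2*, the transcription factor *GRHL2*, and the mesenchymal genes *VIM* and *ZEB1*. Transcripts were measured by bulk RNA-seq in Ishikawa, an established cell line from a human endometrial adenocarcinoma, in 2 libraries with a *CDYL* shRNA (*CDYL*-sh) and 2 libraries with a negative control shRNA. The protein made from *CDYL* has a chromodomain and represses transcription together with other factors. For the *CDYL* hairpin the paper names a plasmid with a U6 promoter, ZsGreen and puromycin resistance, and it does not name that of the control. Transduced cells were selected with puromycin. The comparison asks what lowering *CDYL* does to the transcriptome of an endometrial epithelial line.

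Simple epithelia build their intermediate filaments from keratins, which pair as 1 type II chain (KRT7 or KRT8) with 1 type I chain (KRT18 or KRT19). In the transition to a mesenchymal state, factors such as ZEB1 repress epithelial genes, splicing by the ESRP proteins is lost, and vimentin, the product of *VIM*, comes to form the filaments. GRHL2 acts against this transition by sustaining epithelial genes. In the endometrium the epithelium lines the lumen and glands and the stroma below it is mesenchymal, although endometrial glands are known to make vimentin beside their keratins.

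The targets listed for the hairpins are shown because they define the 2 groups. The labels call the *CDYL*-sh libraries sh1 and sh2 and do not say whether these are replicates or hairpins, so which of the *CDYL* targets each library carried is not known, and the libraries are named here replicate 1 and 2.
hairpin of the negative control: ttctccgaacgtgtcacgtaa
first of the listed CDYL targets (CDYL-sh1): gcgtcttctgttgtggacttgactt
second of the listed CDYL targets (CDYL-sh2): gcaagataatgggaggagcatctgca
last of the listed CDYL targets (CDYL-sh3): gagatattgtggtcaggaa

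The libraries held 27451007 and 22341852 counts in *CDYL*-sh, against 27688447 and 26981051 in control. Counts are expected counts, the authors' estimates of the reads of each gene, and CPM relates them to the library size after TMM scaling. Differences between the groups were assessed by the quasi-likelihood test of edgeR for the 16158 genes that passed a filter on low counts, with a threshold of 0.05 on p-values adjusted by Benjamini-Hochberg over these genes. All adjusted p-values of genes below come from that test unless another tool is named. *CDYL* itself stood at 11.4 and 9.70 CPM in *CDYL*-sh, against 50.4 and 53.0 CPM in control, which is -2.29 on the log2 scale (standard error, SE, 0.13, adjusted p = 4.26e-09). Whether the libraries of a group were grown as separate cultures is not stated in the labels. The p-values therefore rest on the spread between these libraries, which may be technical and in *CDYL*-sh may include a difference between hairpins. The quasi-likelihood test also draws on variation estimated over all genes tested.

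*KRT7* and *KRT19* rose in *CDYL*-sh and *KRT18* and *GRHL2* fell, so 2 of the 10 genes passed the test upward, 2 downward and 6 not at all. Of all 16158 genes tested, 25.7% passed, 13.6% higher and 12.1% lower, so with 10 genes the share of 40% rests on a few calls. The 10 genes were chosen with earlier results of these data known, so the difference between these shares is not a test. The median log2 fold change was 0.02 over the 10 genes and 0.01 over all genes tested. The groups did not overlap in CPM for 8 of the 10 genes, 4 of them higher and 4 lower, where 64.3% of all genes tested did not overlap. Of the 4 calls, that of *KRT19* held whichever library was left out. Calls over all genes varied with GC content. Among tested genes of at least 60% GC, to which *KRT7* and *KRT19* belong, 11.3% were higher and 13.0% lower. From 55% to under 60%, the bin of *KRT18*, 9.49% were higher and 17.4% lower. From 45% to under 50%, the bin of *GRHL2*, 8.52% were higher and 13.2% lower. Under 40%, the bin of *ZEB1*, 25.3% were higher and 4.75% lower. When GC content and length were corrected by offsets, 5 of the 10 genes passed. The log2 fold change was then 0.51 for *KRT7*, 0.65 for *KRT19*, -0.28 for *KRT18* and -0.28 for *GRHL2*. With limma on log2(FPKM + 1), which tested 8 of the 10 genes, 0 passed after adjustment, while 3 higher and 3 lower had an unadjusted p under 0.05. With a pseudocount of 0.1 only *KRT19* passed.

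**Figure D1:**
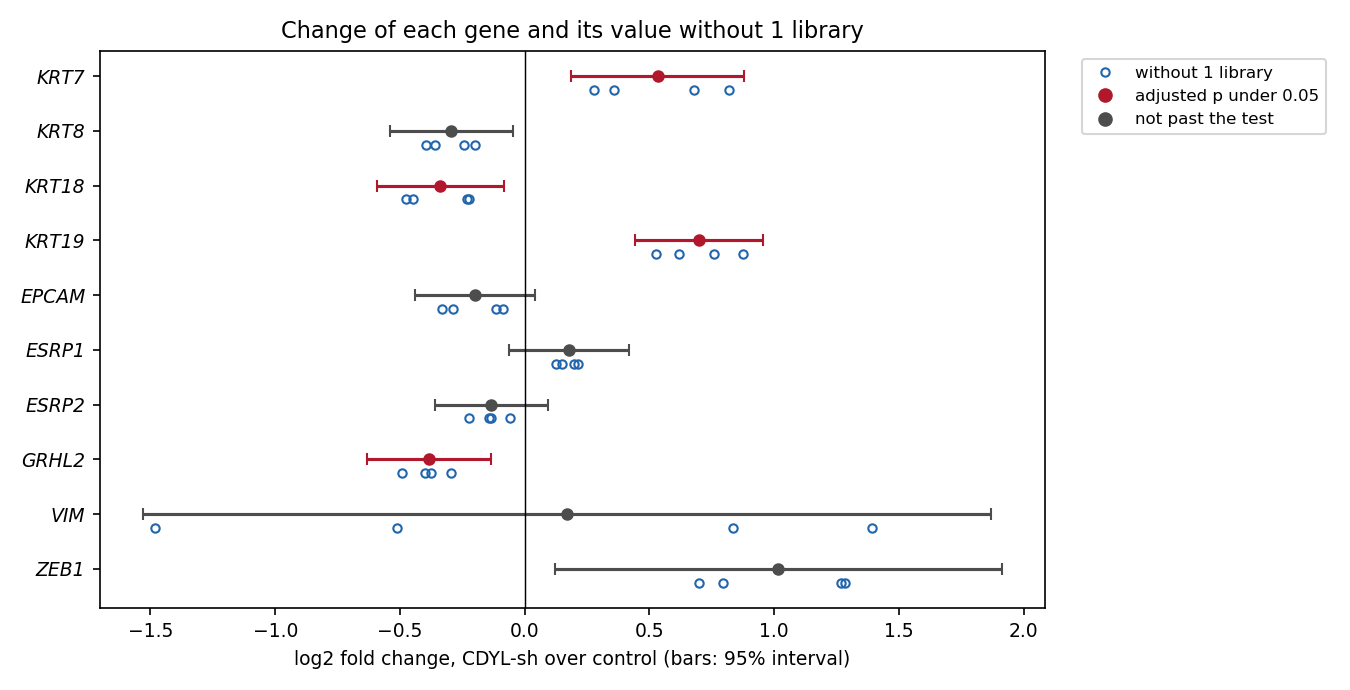
Log2 fold change of the 10 genes, *CDYL*-sh over control, from edgeR's fit with its 95% interval (bars). Red points passed the test, grey points did not, and open circles give the value without 1 library. *KRT19* lies at 0.70 and stays above 0.5 in each of these 4 fits, while *VIM* falls on both sides of 0.

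*KRT19* (ENSG00000171345, chromosome 17 of GRCh38, 41523617 to 41528308, minus strand) encodes a type I keratin of simple and glandular epithelium. It had 15282 and 13433 counts in *CDYL*-sh, against 8758 and 10548 counts in control. In FPKM, which the authors normalized for gene length and depth, its level was 515 and 558 in *CDYL*-sh, against 295 and 362 in control. Both *CDYL*-sh libraries lay above both controls on either scale. *KRT19* rose 1.62-fold (log2 fold change 0.70, SE 0.12, 95% interval 0.44 to 0.95, adjusted p = 0.000469). It passed in 18 of 19 alternative analyses and missed only with limma on log2(FPKM + 1), at 0.71 and an adjusted p of 0.0518.

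*KRT7* (ENSG00000135480, chromosome 12, 52232520 to 52252186, plus strand) encodes a type II keratin of simple epithelium. Its level was 43.8 and 55.2 FPKM in *CDYL*-sh, against 27.95 and 38.3 FPKM in control. The lower *CDYL*-sh library lay only a little above the higher control. *KRT7* rose by 0.53 on the log2 scale (SE 0.16, 95% interval 0.19 to 0.88, adjusted p = 0.0237). The call was lost without control replicate 1 (0.28 in log2, adjusted p = 0.241) and without *CDYL*-sh replicate 2 (0.36 in log2, adjusted p = 0.269), and without control replicate 2 the change was 0.82.

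An exon stretch of 282 bases of *KRT7* is also exon of its antisense RNA *KRT7-AS*, and *KRT7* had counts that were not whole numbers. *KRT7-AS* held 5.08 and 11.2 counts in *CDYL*-sh, against 11.1 and 6.08 in control. The counts of both genes summed to whole numbers in 4 of 4 libraries, 687 and 693 in *CDYL*-sh against 446 and 604 in control. Reads of this stretch were divided between the genes in these files, with *KRT7-AS* taking 2.56% of the *KRT7* count at most.

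*KRT8* (ENSG00000170421, chromosome 12, 52897187 to 52949954, minus strand) and *KRT18* (ENSG00000111057, chromosome 12, 52948871 to 52952906, plus strand) encode the partner chains of the first keratin filaments of the embryo, and the genes lie head to head. *KRT8* was the most abundant of the 10 genes, at 779 and 823 FPKM in *CDYL*-sh, against 911 and 1013 FPKM in control. *KRT18* stood at 475 and 556 FPKM in *CDYL*-sh, against 608 and 683 FPKM in control. For both genes the *CDYL*-sh libraries lay below the controls. *KRT18* fell, with a log2 fold change of -0.34 (SE 0.12, 95% interval -0.59 to -0.08, adjusted p = 0.0472), while *KRT8* had -0.29 (SE 0.12, 95% interval -0.54 to -0.05) and did not pass, with an adjusted p of 0.0726.

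Both values lay next to the threshold. *KRT18* missed it without control replicate 1 (-0.45 in log2, adjusted p = 0.0570), without control replicate 2 (-0.23 in log2, adjusted p = 0.305) and without *CDYL*-sh replicate 1 (-0.23 in log2, adjusted p = 0.330). With upper quartile scaling it had -0.32 (adjusted p = 0.0544). *KRT8* passed with DESeq2 (adjusted p = 0.0257), with no filter on low counts (adjusted p = 0.0266) and with the likelihood ratio test of edgeR (adjusted p = 0.0451).

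The 2 genes share 525 exon bases on opposite strands, and their counts summed to within 0.02 of a whole number in 3 of 4 libraries. The sums were 48774 and 43579 counts in *CDYL*-sh, against 59834 and 65174 in control. Tested as 1 feature, an alternative chosen after seeing the data, the sum gave a log2 fold change of -0.31 (adjusted p = 0.0688). The stretch that codes in both genes is shown because its reads could be given to either (chr12:52949456-52949517, GRCh38, plus strand).
stretch coding in both KRT18 and KRT8: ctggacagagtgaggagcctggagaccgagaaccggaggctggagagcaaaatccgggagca
Listed pseudogene copies held few reads. The 51 copies of *KRT8* summed to 60 and 47.98 counts in *CDYL*-sh, against 62.0 and 88 in control, and the 67 copies of *KRT18* to 2 and 5 counts in *CDYL*-sh, against 9 and 24 in control.

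The shares of single keratins in the keratin pool were set beside its size. Over the 44 keratin genes listed, summed FPKM was 1869 and 2045 in *CDYL*-sh, against 1884 and 2142 in control, and the groups overlapped. *KRT19* made up 27.6% and 27.3% of that sum in *CDYL*-sh, against 15.7% and 16.9% in control. *KRT8* made up 41.7% and 40.2% in *CDYL*-sh, against 48.4% and 47.3% in control, and *KRT18* 25.4% and 27.2% in *CDYL*-sh, against 32.2% and 31.9% in control. *KRT7* was a small part, with 2.34% and 2.70% in *CDYL*-sh, against 1.48% and 1.79% in control. The groups did not overlap in any of these 4 shares, and each had an exact permutation p of 0.333, the smallest that 2 libraries against 2 allow in a two-sided test.

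**Figure D2:**
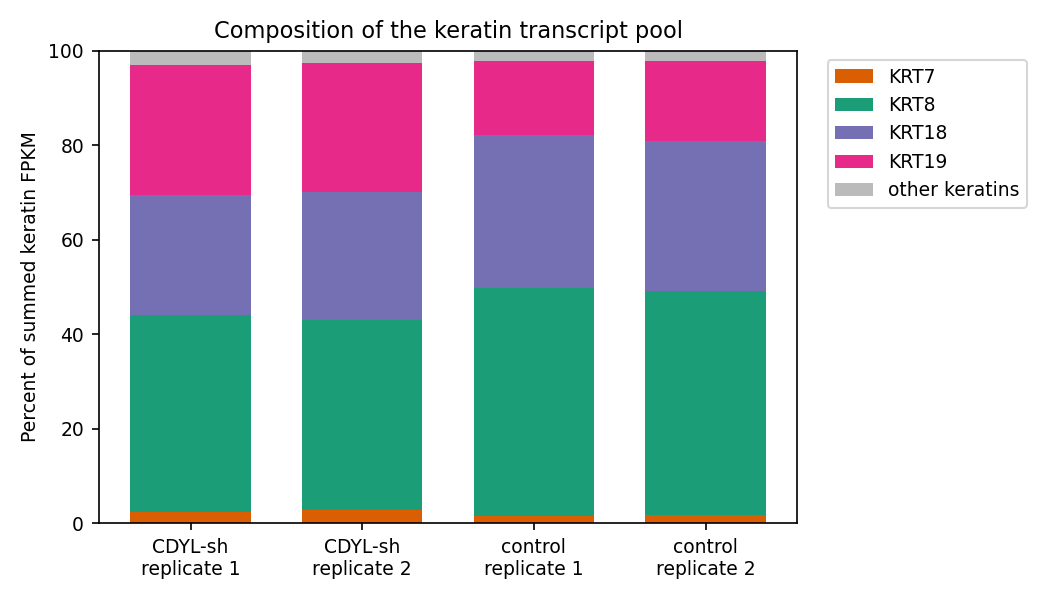
Share of summed keratin FPKM (percent, bars) taken by each keratin in the 4 libraries. *KRT19* takes 27.6% and 27.3% in *CDYL*-sh and 15.7% and 16.9% in control, and *KRT8* takes 41.7% and 40.2% in *CDYL*-sh and 48.4% and 47.3% in control.

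Ratios within a library show the same values without a scaling between libraries. The ratio of *KRT19* to *KRT18*, both type I, was 1.08 and 1.004 in FPKM in *CDYL*-sh, against 0.486 and 0.530 in control, a 2.06-fold difference. The ratio of type II (*KRT7* and *KRT8*) to type I (*KRT18* and *KRT19*) was 0.830 and 0.788 in *CDYL*-sh, against 1.04 and 1.005 in control. Neither ratio overlapped between the groups, and each had an exact permutation p of 0.333. The ratio of the partners *KRT8* and *KRT18* was 1.64 and 1.48 in *CDYL*-sh, against 1.5 and 1.48 in control, and the groups overlapped.

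*EPCAM* (ENSG00000119888, chromosome 2, 47345158 to 47387601, plus strand) encodes an epithelial cell adhesion molecule that is cut by proteases of the membrane. Its level was 311 and 271 FPKM in *CDYL*-sh, against 330 and 289 FPKM in control. The groups overlapped in FPKM, and *EPCAM* did not pass the test (log2 fold change -0.20, SE 0.11, 95% interval -0.44 to 0.04, adjusted p = 0.215). Its divergent transcript *EPCAM-DT* had 0 counts in both *CDYL*-sh libraries, against 1 and 2 counts in control. *EPCAM* passed when GC content and length were corrected by offsets (-0.32 in log2, adjusted p = 0.0201).

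*ESRP1* (ENSG00000104413, chromosome 8, 94641074 to 94707466, plus strand) and *ESRP2* (ENSG00000103067, chromosome 16, 68229033 to 68238102, minus strand) encode paralogous RNA-binding proteins that keep the epithelial splice forms of their targets. *ESRP1* stood at 16.6 and 14.5 FPKM in *CDYL*-sh, against 12.6 and 11.9 FPKM in control, and *ESRP2* at 21.1 and 19.9 FPKM in *CDYL*-sh, against 22.6 and 22.1 FPKM in control. *ESRP1* was above and *ESRP2* below the controls in both *CDYL*-sh libraries, yet neither passed the test. The log2 fold change was 0.18 (SE 0.11, 95% interval -0.06 to 0.42, adjusted p = 0.274) for *ESRP1* and -0.13 (SE 0.11, 95% interval -0.36 to 0.09, adjusted p = 0.388) for *ESRP2*. Neither passed in any of 19 alternative analyses.

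Summed over both genes, FPKM was 37.7 and 34.4 in *CDYL*-sh, against 35.2 and 34.0 in control, and the groups overlapped. The ratio of *ESRP1* to *ESRP2* was 0.786 and 0.727 in *CDYL*-sh, against 0.558 and 0.537 in control, with no overlap and an exact permutation p of 0.333. The exons of *ESRP2* overlap those of *NFATC3* over 227 bases and those of an unnamed long noncoding RNA over 113 bases, and its counts were not whole, so which gene the reads of these stretches came from cannot be told apart.

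*GRHL2* (ENSG00000083307, chromosome 8, 101492439 to 101669726, plus strand) encodes a grainyhead transcription factor that sustains epithelial adhesion genes. It had 1026 and 715 counts in *CDYL*-sh, against 1248 and 1203 counts in control, or 7.79 and 6.96 FPKM in *CDYL*-sh, against 9.69 and 10.4 FPKM in control. All *CDYL*-sh values lay below the controls. *GRHL2* fell, with a log2 fold change of -0.38 (SE 0.12, 95% interval -0.63 to -0.13, adjusted p = 0.0234). The call was lost without control replicate 1 (-0.40 in log2, adjusted p = 0.0571) and without *CDYL*-sh replicate 2 (-0.30 in log2, adjusted p = 0.283).

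*VIM* (ENSG00000026025, chromosome 10, 17228241 to 17237593, plus strand) was close to absent in all 4 libraries. It had 13 and 2 counts in *CDYL*-sh, against 3 and 11 counts in control, so that 1 library of each group held most of the reads. The log2 fold change was 0.17 with an SE of 0.81 and a 95% interval from -1.53 to 1.87 (adjusted p = 0.902). A change of *VIM* was not detectable at this depth in either direction. *EPCAM* exceeded it by 1037 and 4512 times in FPKM in *CDYL*-sh, against 4720 and 1111 times in control. *VIM-AS1*, its antisense RNA, had no count in any library. The limit that a count of 0 allows, 3 counts, comes to between 0.108 and 0.134 CPM, here without TMM scaling.

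*ZEB1* (ENSG00000148516, chromosome 10, 31318495 to 31529814, plus strand), a zinc finger repressor of epithelial genes, was also scarce. It had 35 and 42 counts in *CDYL*-sh, against 25 and 17 counts in control, or 0.25 and 0.38 FPKM in *CDYL*-sh, against 0.17 and 0.15 FPKM in control. The *CDYL*-sh libraries lay above the controls, but the log2 fold change of 1.02 (SE 0.43, 95% interval 0.12 to 1.91) did not pass, with an adjusted p of 0.0881. It passed in 1 of 17 alternatives, the filter of at least 10 counts in every library (adjusted p = 0.0326).

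*ZEB1-AS1* (ENSG00000237036), transcribed from the opposite strand across the start of *ZEB1*, was lower in *CDYL*-sh. It had 35 and 42 counts in *CDYL*-sh, against 111 and 89 counts in control. In both *CDYL*-sh libraries its count was the same number as that of *ZEB1*, while their FPKM differed. *ZEB1-AS1* fell by 1.23 on the log2 scale (SE 0.30, adjusted p = 0.00576), and missed the threshold without *CDYL*-sh replicate 1 (-0.96 in log2, adjusted p = 0.0653) and with limma on log2(FPKM + 1) (-0.95, adjusted p = 0.0703). The ratio of *ZEB1-AS1* to *ZEB1* in counts was 1 in both *CDYL*-sh libraries, against 4.44 and 5.24 in control. In FPKM the ratio was 5.8 and 2.63 in *CDYL*-sh, against 21.6 and 19.4 in control. The groups did not overlap on either scale, each with an exact permutation p of 0.333. The genes share 396 exon bases on opposite strands, and the methods name an orientation mode for the alignment without saying whether strand entered the counting.

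The 250 bases before the first *ZEB1* start in RefSeq lie inside the *ZEB1-AS1* gene and are shown for that reason (chr10:31318167-31318416, GRCh38.p14, plus strand). Capitals mark a match to the E-box CAGGTG, searched on both strands with CACCTG, 57 bases before the start, and a match to the GC box GGGCGG, searched with CCGCCC, 99 bases before it. An E-box was present in 17.5% and a GC box in 42.6% of the 250 bases before the start of all 35116 RefSeq promoters. RefSeq lists 7 *ZEB1* starts, and in windows from 250 bases before to 50 bases after each, 2 of the 7 held an E-box match, this one with 1 and a later one with 3.
ZEB1 upstream: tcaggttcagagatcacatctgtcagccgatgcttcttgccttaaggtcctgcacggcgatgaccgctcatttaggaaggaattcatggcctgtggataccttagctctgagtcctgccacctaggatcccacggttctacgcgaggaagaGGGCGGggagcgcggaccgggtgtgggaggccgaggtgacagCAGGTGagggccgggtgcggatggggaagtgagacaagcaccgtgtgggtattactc

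**Figure D3:**
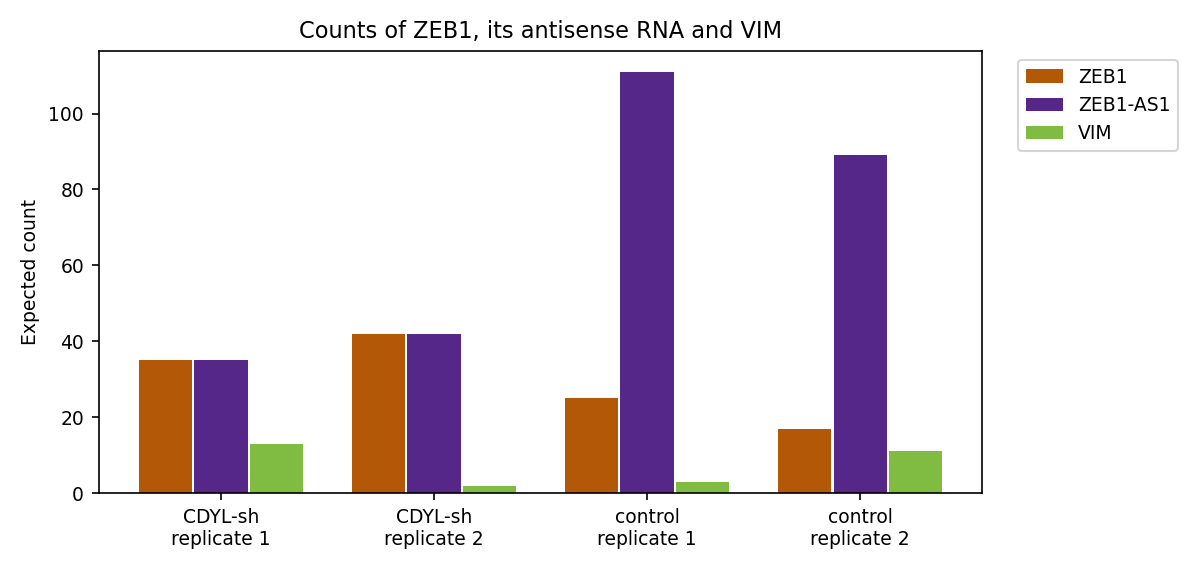
Expected counts (bars) of *ZEB1*, *ZEB1-AS1* and *VIM* in each library. *ZEB1-AS1* has 35 and 42 counts in *CDYL*-sh, equal to *ZEB1*, and 111 and 89 in control, while *VIM* stays at or below 13.

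Ordered by mean FPKM, the 10 genes span a wide range in both groups. In *CDYL*-sh the order was *KRT8*, *KRT19*, *KRT18*, *EPCAM*, *KRT7*, *ESRP2*, *ESRP1*, *GRHL2*, *ZEB1* and *VIM*, and *KRT19* with *KRT18* and *ZEB1* with *VIM* overlapped as neighbours. In control it was *KRT8*, *KRT18*, *KRT19*, *EPCAM*, *KRT7*, *ESRP2*, *ESRP1*, *GRHL2*, *VIM* and *ZEB1*, where *KRT19* overlapped with *EPCAM* and *VIM* with *ZEB1*. *KRT8* averaged 801 ± 31.2 FPKM in *CDYL*-sh and 962 ± 72.0 FPKM in control (SD, n = 2 each). *KRT19* averaged 537 ± 30.3 FPKM in *CDYL*-sh and 329 ± 47.7 FPKM in control (SD, n = 2 each).

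**Figure D4:**
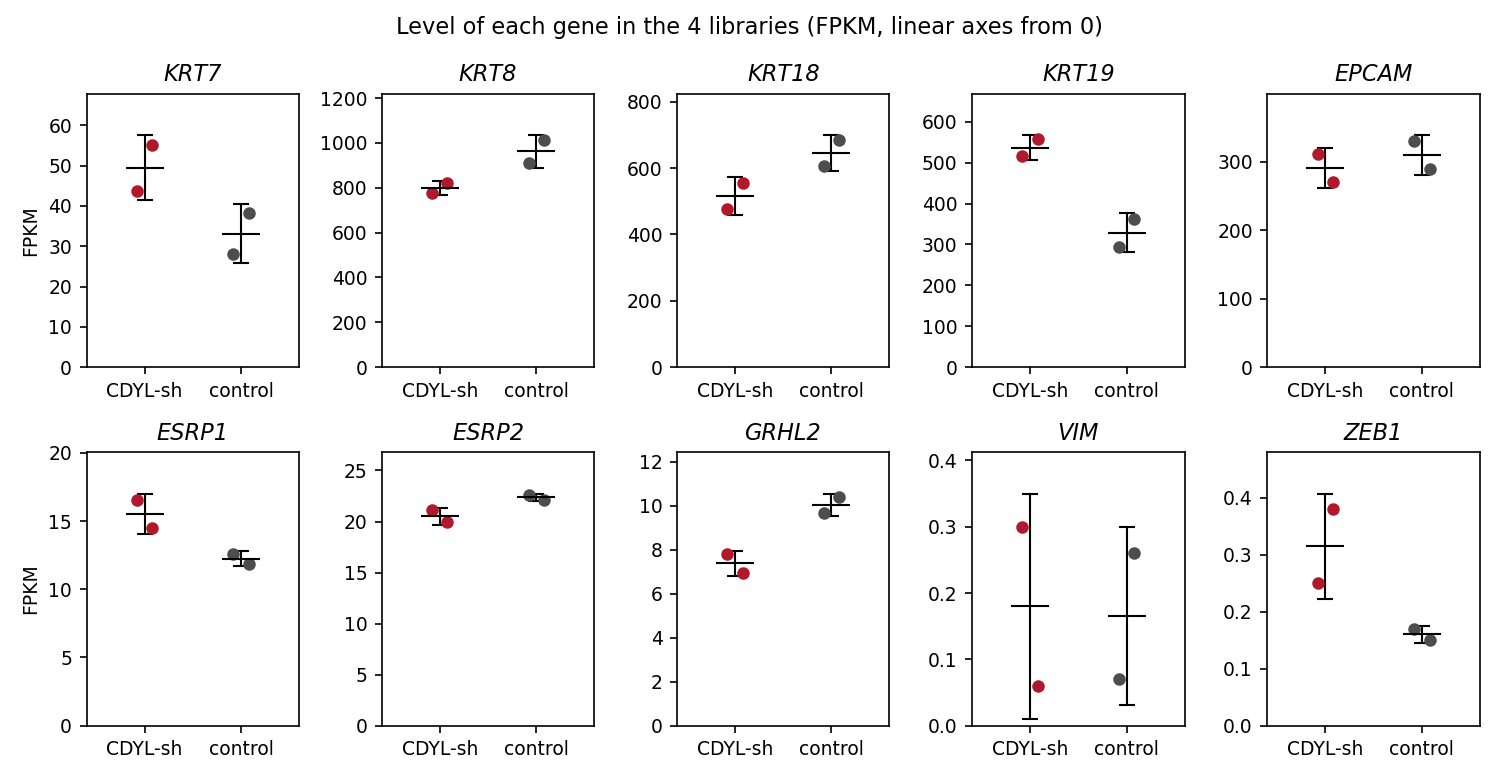
FPKM of the 10 genes, each in its own panel on a linear axis from 0, with a point for each library and bars for mean and SD. *KRT8* is highest, between 779 and 1013 FPKM, and *VIM* and *ZEB1* lie below 0.4 FPKM in all libraries.

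The genes nearest in level and pattern were found by the Euclidean distance of log2(FPKM + 1) over the 4 libraries. For *EPCAM* they were *RPN1* (distance 0.181) and *MAGEA3* (0.193), and for *KRT18* they were *HSD17B10* (0.222) and *PA2G4* (0.233). For *ZEB1* they were *GRIA4* (0.0474) and *SNCB* (0.0498), and for *VIM* the nearest named gene was *RBMS3* (0.0542).

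The labelled cell type was checked against markers. Keratins and *EPCAM* were abundant and *VIM* was nearly absent, and of 12 stromal markers *COL3A1*, *DCN*, *TCF21* and *COL6A3* had no count in any library. Of 14 endometrial epithelial markers *PGR*, the progesterone receptor, had no count, and *ESR1*, the oestrogen receptor, was at or below 0.20 FPKM. The stromal list summed to 52.3 and 49.8 FPKM in *CDYL*-sh, against 81.0 and 78.2 FPKM in control, with 0 of 6 tested genes higher in edgeR, at an unadjusted p under 0.05 and in DESeq2, and 2 lower (*FBLN1* and *COL1A1*). *FBLN1* made up most of that sum, with 46.1 and 42.7 FPKM in *CDYL*-sh, against 72.5 and 69.9 FPKM in control. *COL1A1*, *COL1A2* and *HAND2* were also present, between 1.36 and 4.3 FPKM. The epithelial list summed to 3179 and 3345 FPKM in *CDYL*-sh, against 2628 and 2785 FPKM in control, with 3 of 11 tested genes higher and 3 lower. *WFDC2* made up most of it, with 2355 and 2531 FPKM in *CDYL*-sh, against 1813 and 1948 FPKM in control, while *MSX1* had 121 and 118 FPKM in *CDYL*-sh, against 216 and 201 FPKM in control. Immune markers summed to 14.2 and 12.1 FPKM in *CDYL*-sh, against 5.36 and 7.97 FPKM in control, nearly all from *CD68*, while *CD3E*, *CD163*, *MS4A1* and *TYROBP* had no count. Endothelial markers summed to 2.99 and 2.37 FPKM in *CDYL*-sh, against 1.71 and 1.83 FPKM in control, with 1 of 5 tested genes higher and *EMCN* at 0. The higher one was *PECAM1*, with 146 and 140 counts in *CDYL*-sh, against 45 and 52 counts in control. The part of these lists in the changes of the 10 genes was not tested, and in bulk RNA fewer cells of a type and less RNA per cell cannot be told apart.

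Of 192 related genes in 9 lists, 137 were tested, and 26 of these rose, 32 fell and 79 did not pass. Those that passed come to 42.3%, against 25.7% of all genes tested. By list, the share past the test ran from 27.3% for the other keratins to 57.1% for the mesenchymal genes. The lists were chosen with earlier results of these data known, so the difference between these shares is not a test. Their median log2 fold change was 0.04. Genes named below are from the 3 of each list with the lowest adjusted p. With limma on log2 FPKM 9 related genes passed at either pseudocount. Of the genes named below, *FAM83H*, *PRSS8*, *PSEN2*, *SOX4*, *LOXL2*, *S100A4*, *SRSF2* and *NEFH* passed there and the others lost their call. On the log2(FPKM + 1) scale the change was 0.67 for *KRT86*, 0.59 for *AKAP9*, 0.31 for *CD44*, 0.65 for *MBNL2* and -0.60 for *IFFO2*, each smaller by more than 1.5 times than with edgeR. With a pseudocount of 0.1 the changes were 1.34, 0.85, 0.32, 0.96 and -0.71 in the same order, so these values depend on the pseudocount.

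Among 11 tested other keratins, 3 rose and 0 fell with edgeR, or 27.3% past the test against 25.7% of all genes tested. The same counts came from DESeq2 and limma-voom, run on the same 4 libraries. With limma on log2 FPKM 0 rose and 0 fell at either pseudocount. At an unadjusted p under 0.05, 3 were higher and 0 lower with edgeR and with limma on log2 FPKM, and 12 of the 40 listed had no count in any library. *KRT80*, a type II keratin, had 41.2 and 38.8 CPM in *CDYL*-sh, against 16.7 and 23.2 CPM in control, which is 1.01 higher on the log2 scale (SE 0.15). *KRT15* rose by 1.51 on the log2 scale (SE 0.39) and *KRT86* by 1.41 (SE 0.38), and both stayed under 3 CPM in every library. *KRT86* belongs to a family of near-identical hair keratins and its counts were not whole, so its count is uncertain. *KRT15* missed the threshold without control replicate 1 (1.04 in log2, adjusted p = 0.0718) and without *CDYL*-sh replicate 2 (1.29 in log2, adjusted p = 0.0802), and reached 2.16 at most with 1 library left out. *KRT86* missed it without control replicate 1 (1.0 in log2, adjusted p = 0.0763) and without *CDYL*-sh replicate 1 (1.33 in log2, adjusted p = 0.0509).

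Of 15 tested partners of keratin filaments, 3 rose and 3 fell. *FAM83H*, which brings casein kinase to keratin filaments, had 132 and 133 CPM in *CDYL*-sh, against 203 and 206 CPM in control (log2 fold change -0.63, SE 0.10). *DNAJB6*, a chaperone that binds KRT18, fell by 0.57 on the log2 scale (SE 0.11). *AKAP9*, a scaffold of the centrosome and Golgi, rose by 1.22 on the log2 scale (SE 0.23).

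Among 28 tested epithelial regulators and surface genes, 5 rose and 5 fell. *GRHL3*, a paralog of *GRHL2*, had 25.6 and 28.5 CPM in *CDYL*-sh, against 12.2 and 17.0 CPM in control (log2 fold change 0.89, SE 0.16). Beside it, *GRHL2* had a log2 fold change of -0.38, and the difference between the 2 genes was not tested. *PRSS8*, a membrane serine protease of epithelia, rose by 0.51 on the log2 scale (SE 0.10).

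Of 13 tested genes of EPCAM cleavage and its partners, 4 rose and 3 fell. *PSEN2*, a catalytic subunit of the gamma-secretase complex, had 31.7 and 29.4 CPM in *CDYL*-sh, against 79.9 and 88.8 CPM in control, and fell by 1.46 on the log2 scale (SE 0.12). *ADAM10*, a membrane metalloprotease that sheds surface proteins, rose by 0.71 on the log2 scale (SE 0.11), with 0.39 when GC content and length were corrected by offsets (adjusted p = 0.0044) and 0.29 with limma on log2(FPKM + 1) (adjusted p = 0.390). *CD44*, a hyaluronan receptor, rose by 0.58 on the log2 scale (SE 0.10).

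Of 14 tested transcription factors of the transition 0 rose and 5 fell with edgeR, and 0 were higher at an unadjusted p under 0.05 or with DESeq2, which passed 4 lower. This list does not hold *ZEB1*, which was described above and had an unadjusted p of 0.0285 with a higher value in *CDYL*-sh. The genes *ZEB2*, *SNAI2*, *PRRX1*, *GSC* and *TBXT* had no count in any library. *SOX4* had 19.4 and 16.7 CPM in *CDYL*-sh, against 46.9 and 44.6 CPM in control, and fell by 1.34 on the log2 scale (SE 0.13). *ID2*, an inhibitor of basic helix-loop-helix factors, fell by 0.51 on the log2 scale (SE 0.11).

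Of 14 tested mesenchymal genes, 4 rose and 4 fell. *LOXL2*, a lysyl oxidase of the matrix, had 21.7 and 25.01 CPM in *CDYL*-sh, against 8.98 and 10.6 CPM in control (log2 fold change 1.25, SE 0.15). *S100A4*, a calcium-binding protein, rose by 0.69 on the log2 scale (SE 0.11). *TNC*, tenascin C of the matrix, fell by 0.58 on the log2 scale (SE 0.12). *CDH11*, *FOXF1*, *COL3A1* and *POSTN* had no count in any library.

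Of 19 tested splicing factors of the transition, 3 rose and 5 fell. *SRSF2* had 239 and 216 CPM in *CDYL*-sh, against 411 and 380 CPM in control, and *SRSF1* 197 and 163 CPM in *CDYL*-sh, against 334 and 288 CPM in control. Both encode serine/arginine-rich splicing factors and fell, by 0.80 (SE 0.11) for *SRSF2* and 0.79 (SE 0.12) for *SRSF1* on the log2 scale. *MBNL2*, a muscleblind splicing factor, rose by 1.26 on the log2 scale (SE 0.21).

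Of 11 tested genes whose transcripts ESRP proteins splice, 2 rose and 3 fell, measured as whole genes and not as splice forms. *CTNND1*, p120 catenin, had 58.0 and 56.3 CPM in *CDYL*-sh, against 99.6 and 89.8 CPM in control, and fell by 0.73 on the log2 scale (SE 0.11). *SLK*, a kinase, rose by 0.87 on the log2 scale (SE 0.14). *EXOC7*, an exocyst subunit, fell by 0.42 on the log2 scale (SE 0.11) and missed the threshold without *CDYL*-sh replicate 2 (adjusted p = 0.124).

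Of 14 tested other intermediate filament genes, 3 rose and 4 fell. *NEFH*, the heavy neurofilament chain, had 35.1 and 33.5 CPM in *CDYL*-sh, against 11.8 and 10.1 CPM in control (log2 fold change 1.64, SE 0.14). *IFFO2* had 15.9 and 13.1 CPM in *CDYL*-sh, against 27.2 and 30.0 CPM in control, and fell by 0.98 on the log2 scale (SE 0.14). *SYNM*, synemin, which assembles with vimentin in other cells, fell by 0.69 on the log2 scale (SE 0.11).

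**Figure D5:**
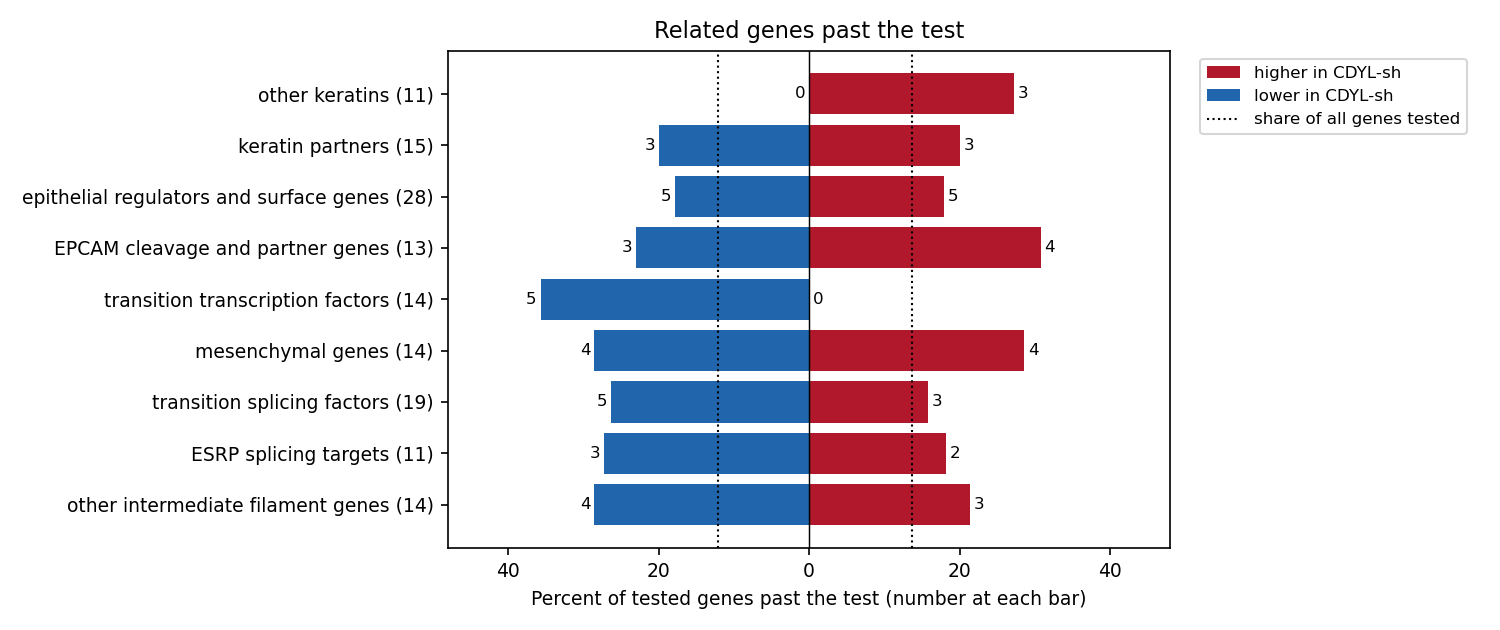
Percent of tested genes in each of the 9 related lists that passed the test, higher in *CDYL*-sh to the right and lower to the left, with each bar carrying its gene count, and dotted lines at 13.6% and 12.1%, the shares over all genes tested. Only the other keratins, with 11 tested genes, have no lower gene, and only the transition transcription factors, with 14, have no higher gene.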

How the data were processed

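RNA-seq was measured in 2 *CDYL*-sh and 2 control libraries. TruSeq libraries were sequenced as paired-end reads, which the authors aligned with TopHat against GRCh38.p10. RSEM and edgeR are further tools given in the submitters' processing notes. The deposited table holds expected counts, of which 89.3% to 90.4% are whole, and FPKM normalized by the authors for length and depth. The annotation release is not given in the sources used here. Symbols were found for 98.1% of identifiers, and positions came from GENCODE on GRCh38.

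Expected counts were rounded, filtered with filterByExpr (minimum count 10), scaled by TMM and tested with edgeR 4.0.16 (glmQLFit, glmQLFTest) in R 4.3.3. A prior count of 2 entered only the log2 CPM used for the GC and length offsets and for the correlation of same-numbered libraries. The standard error is the log2 fold change divided by the square root of F. Intervals are 95%, and the limit of 3 counts for a count of 0 covers counting error only. The alternatives were RLE, upper quartile and library size scaling, no filter or 10 counts in every library, DESeq2 1.42.0, limma 3.58.1 (voom, and log2 FPKM with pseudocounts of 1 and 0.1 at a mean of at least 0.5 FPKM), the likelihood ratio test, unrounded counts, pseudogene counts added, a replicate block, offsets for GC and length, and each library left out. Summing *KRT8* with *KRT18* and a crossed block were added after seeing the data. Scripts were tested on simulated data. The 10 genes and all lists were chosen with earlier results of these data known. All 10 genes were named, with up to 3 genes of each related list by lowest adjusted p, antisense and pseudogene copies with a count, and the 2 genes nearest to *EPCAM*, *KRT18*, *VIM* and *ZEB1*. The results of some genes are not reported here.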

Additional observations from a re-analysis of the deposited data

How the results depend on the processing

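Limma on FPKM passed 0 of the 10 genes, 9 related genes and 461 of all genes with a pseudocount of 1, and 1, 9 and 507 with a pseudocount of 0.1. Leaving out 1 library gave 1 to 3 of the 10 genes (1 without control replicate 1), 38 to 48 related genes and 2082 to 4006 of all genes (2082 without *CDYL*-sh replicate 2), and the lone library of a group is then assumed to vary like the others. *VIM* ranged over -1.48 to 1.39 with 1 library left out, and turned to -0.51 without control replicate 1 and to -1.48 without *CDYL*-sh replicate 1, past the test in neither. The same-numbered libraries' deviations correlated at 0.03 across genes. A single value over all genes tested cannot decide whether same-numbered libraries were paired. With a replicate block 6 of the 10 genes, 70 related genes and 5393 of all genes passed, *KRT8* (adjusted p = 0.00303) and *EPCAM* (adjusted p = 0.0209) being added, and with a crossed block, chosen after seeing the data, 2 of the 10, 47 related genes and 3530 of all genes passed. Offsets for GC content and length gave 5 of the 10 and 5160 of all genes, 2410 higher and 2750 lower. The causes were not tested. *VIM* and *ZEB1* had at most 13 and 42 counts in a library, which limits the precision of their values.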
